A study of Mus musculus with 7 samples.

Results

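The genes described here are 9 markers of dendritic cells: Flt3, Zbtb46, Batf3, Xcr1, Clec9a, Cd209a, Dpp4, Itgae and Fscn1. They were chosen by symbol from the 23361 genes quantified in macrophages of the injured mouse nerve, and all 9 were found. The study transected the left sciatic nerve of wild-type BALB/cJ mice, repaired it inside a conduit and sorted macrophages from the tissue bridge that regrew between the stumps. RNA sequencing was available for 3 libraries from day 5 after repair, 2 from day 14 and 2 from day 28, each day from different mice. Sorted cells carried F4/80, CD14, CD11b and CD16/32, and cells with surface markers of granulocytes, lymphocytes, red cells and fibroblasts were gated out. An antibody to CD31, for endothelial cells, is also among those the study lists. No dendritic cell marker was named for exclusion. Whether a library came from 1 mouse or from a pool is not given in the sources used here, so p-values reflect the spread between these libraries.

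Dendritic cells take up antigen in tissues, migrate to lymph nodes and present it to T cells. Conventional dendritic cells form 2 branches, cDC1 and cDC2, and inflamed tissue also holds dendritic cells that derive from monocytes. Macrophages share a number of genes with them, CD11b among their surface proteins, which is why transcripts such as Zbtb46 and Flt3 are used to tell the lineages apart. FLT3 is the receptor for the growth factor on which conventional dendritic cells depend, and ZBTB46 is a transcription factor of that lineage. BATF3 is the AP-1 family factor needed for cDC1, and XCR1 and CLEC9A are cDC1 surface receptors for a chemokine and for dead cell debris. CD209A is a C-type lectin of monocyte-derived dendritic cells, DPP4 is the surface peptidase CD26, and the integrin chain ITGAE is CD103. FSCN1 bundles actin and is a marker of mature dendritic cells. The question addressed is whether these transcripts moved over the time course, and how their level and spread stand beside those of macrophage genes and of other cell types.

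All 9 genes lie outside one another on GRCm38 (mm10), in GENCODE vM21 coordinates. Batf3 is at chr1:191097847-191108945, Fscn1 at chr5:142960343-142973185, Cd209a at chr8:3743397-3748984 and Zbtb46 at chr2:181387762-181459426. Dpp4 is at chr2:62330073-62412231, Xcr1 at chr9:123852315-123862029 and Flt3 at chr5:147330741-147400489. Clec9a is at chr6:129408862-129424763 and Itgae at chr11:73090583-73147446. An exon of Clec9a overlaps Clec1b on the same strand and shares 3.23% of its 75-base windows with it, and Clec1b itself had 0 to 15 fragments per library. Dpp4 shares 2.52% of its windows with the antisense gene Gm13561. No window of Cd209a was shared with its paralogs.

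The promoters below are of the 4 members with all day 28 libraries above day 5 in FPKM, a choice made after seeing their values. They come from RefSeq (GRCm38.p6), run 5′ to 3′ on the gene's strand from 250 bases before to 50 bases after the annotated start, and capitals mark the motif matches. The start used for Zbtb46 lies within the gene.
Cd209a, chr8:3748935-3749234, minus strand: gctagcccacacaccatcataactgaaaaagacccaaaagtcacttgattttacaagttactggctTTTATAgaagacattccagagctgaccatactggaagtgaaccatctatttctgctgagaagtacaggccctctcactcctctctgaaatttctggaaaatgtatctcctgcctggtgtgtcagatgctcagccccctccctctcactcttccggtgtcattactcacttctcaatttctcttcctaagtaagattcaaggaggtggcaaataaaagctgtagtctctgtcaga
Dpp4, chr2:62412182-62412481, minus strand: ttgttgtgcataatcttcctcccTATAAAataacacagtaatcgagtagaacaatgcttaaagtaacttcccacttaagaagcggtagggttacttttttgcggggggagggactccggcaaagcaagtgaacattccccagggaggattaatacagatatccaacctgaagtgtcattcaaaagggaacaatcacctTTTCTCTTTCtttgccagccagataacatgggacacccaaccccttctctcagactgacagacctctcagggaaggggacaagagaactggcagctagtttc
Xcr1, chr9:123861980-123862279, minus strand: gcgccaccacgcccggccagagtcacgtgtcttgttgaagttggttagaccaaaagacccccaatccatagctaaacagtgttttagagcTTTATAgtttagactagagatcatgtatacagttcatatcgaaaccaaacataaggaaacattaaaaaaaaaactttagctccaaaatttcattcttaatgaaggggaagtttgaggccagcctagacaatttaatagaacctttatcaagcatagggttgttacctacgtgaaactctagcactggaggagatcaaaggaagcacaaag
Zbtb46, chr2:181424339-181424638, minus strand: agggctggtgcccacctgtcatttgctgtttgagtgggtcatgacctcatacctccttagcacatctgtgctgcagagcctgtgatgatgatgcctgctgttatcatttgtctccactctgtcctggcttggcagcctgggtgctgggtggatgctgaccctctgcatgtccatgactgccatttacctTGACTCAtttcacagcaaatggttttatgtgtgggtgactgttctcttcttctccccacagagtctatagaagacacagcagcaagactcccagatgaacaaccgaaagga
Of the 9 members, 8 had a promoter in the table used. Both strands were searched for 5 letter patterns. The AP-1 pattern TGANTCA was found only in Zbtb46, 61 bases before the start, and in 7.81% of 32851 promoters. A pair of IRF half-sites was found only in Dpp4, 52 bases before the start, and in 3.44% of all promoters. The letters TATAAA stood in 13.6% of all promoters and in 5 of the members, and in Fscn1 they lay 31 bases before the start. The PU.1 core GAGGAAGT (3.2% of all promoters) and the NF-kB pattern GGGANNTCC (4.3%) were found in none of the 8. These matches describe the letters and no binding was measured.

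The 9 markers had mean levels from 0.0916 to 7.24 FPKM. Levels are given as FPKM, which scales fragments by transcript length and library size, so that genes of different length can be compared. Batf3 had the highest mean over the 7 libraries, 7.24 FPKM, followed by Fscn1 at 4.61 and Cd209a at 4.05. Next came Zbtb46 at 0.931, Dpp4 at 0.508, Xcr1 at 0.477, Flt3 at 0.367, Clec9a at 0.166 and Itgae at 0.0916. The step from Cd209a to Zbtb46 was the only one between neighbours in this order without overlap of their ranges, and Cd209a was higher in 7 of 7 libraries. Xcr1 and Dpp4, by contrast, changed places from library to library, with Dpp4 higher in 3 of 7. Among all detected genes, Batf3 stood at percentile 61.6 of mean FPKM, Fscn1 at 55.0, Cd209a at 53.3, Flt3 at 31.8 and Itgae at 22.2.

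The members together held 464 to 933 of the 18027190 to 35247116 fragments of a library, of which 64.3% to 77.4% came from Batf3, Fscn1 and Cd209a. Their summed level was 14.8 to 27.2 FPKM. The summed level of 16 macrophage markers was 19800 to 25760 FPKM, of which Lyz2 was the largest part (10680 to 18380 FPKM). Csf1r, a receptor gene on the macrophage marker list, had a mean of 441.8 FPKM. In bulk RNA of sorted cells, fewer dendritic cells and less RNA per cell cannot be told apart, nor can a few cells with high levels be told from many with low levels.

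**Figure D1:**
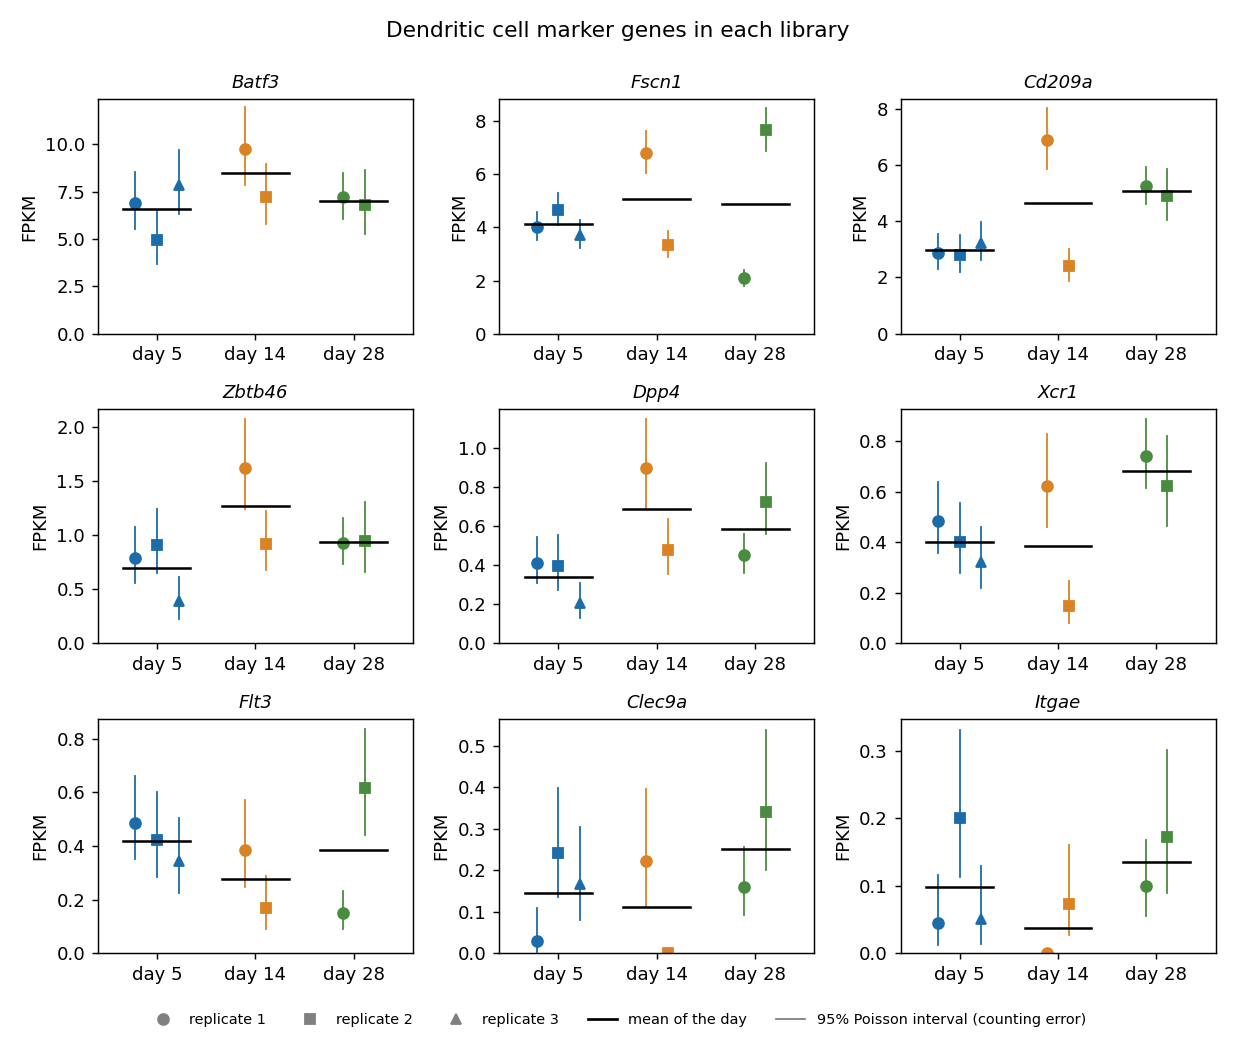
Level of each member in FPKM (vertical axis, linear, from 0) in the 7 libraries by day after repair, with counting error as 95% Poisson intervals and the mean of each day as a black line; a library with 0 fragments has no bar. Batf3, Fscn1 and Cd209a lie between 2.08 and 9.73 FPKM, all others at or under 1.62, and the 2 libraries of day 14 stand apart for Cd209a and Xcr1.

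Among the 3 markers with higher levels, Cd209a stood at 2.88, 2.80 and 3.24 FPKM on day 5 (mean 2.97 ± 0.232, SD, n = 3), at 6.89 and 2.40 on day 14 and at 5.24 and 4.90 on day 28 (5.07 ± 0.243, SD, n = 2). Both day 28 libraries lay above all 3 of day 5, while day 14 held both the highest and the lowest value. Batf3 had 6.91, 4.94 and 7.86 FPKM on day 5, 9.73 and 7.24 on day 14, and 7.19 and 6.81 on day 28. Its days overlapped except that both day 28 libraries were just below those of day 14. Fscn1 had 4.03, 4.65 and 3.72 FPKM on day 5, 6.81 and 3.34 on day 14, and 2.08 and 7.67 on day 28. Its lowest and highest libraries were thus the 2 of day 28.

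The lineage factor Zbtb46 had 0.791, 0.911 and 0.389 FPKM on day 5, 1.62 and 0.923 on day 14, and 0.928 and 0.947 on day 28. Every later library was above day 5, by a narrow margin. The growth factor receptor Flt3 had 0.487, 0.422 and 0.343 FPKM on day 5, 0.384 and 0.168 on day 14, and 0.150 and 0.616 on day 28, so that day 28 spanned the whole range. The peptidase gene Dpp4 had 0.413, 0.394 and 0.207 FPKM on day 5, 0.896 and 0.478 on day 14, and 0.450 and 0.723 on day 28. All 4 later libraries exceeded day 5.

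Of the cDC1 receptors, Xcr1 had 0.483, 0.400 and 0.322 FPKM on day 5, 0.624 and 0.147 on day 14, and 0.742 and 0.623 on day 28. Day 28 was above day 5, and the lowest library was one of day 14. Clec9a rested on 2, 15 and 10 fragments on day 5, 11 and 0 on day 14, and 17 and 18 on day 28. Itgae rested on 4, 15 and 4 fragments on day 5, 0 and 6 on day 14, and 14 and 12 on day 28. A count of 0 allows up to 3 fragments (a one-sided 95% limit), so that neither gene could be called absent from those day 14 libraries. Intervals and this limit cover counting error only.

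No member passed the test between any pair of days. Genes were called at a Benjamini-Hochberg adjusted p under 0.05 in edgeR's quasi-likelihood test over 12858 genes, and all 9 members passed the filter on low counts. From day 5 to day 14, 0 of 9 members were called, against 4.78% of all genes, and the lowest adjusted p among them was 0.23. From day 14 to day 28, 0 were called, against 0.0622% of all genes (lowest adjusted p 0.597). From day 5 to day 28, 0 were called, against 15.2% of all genes (lowest adjusted p 0.183). No member had an unadjusted p under 0.05 in any of the 3 comparisons, and DESeq2 also called 0 in each. The fitted log2 fold change was positive for 5, 5 and 8 of the 9 members in these comparisons, with medians of 0.30, 0.15 and 0.45, beside 0.03, 0.01 and 0.03 over all genes tested.

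The largest differences from day 5 to day 28 were in Dpp4, Cd209a and Xcr1. The log2 fold change was 0.82 for Dpp4 (95% interval -0.12 to 1.76, adjusted p = 0.214), 0.79 for Cd209a (-0.05 to 1.62, adjusted p = 0.183) and 0.78 for Xcr1 (-0.39 to 1.95, adjusted p = 0.338). All 3 intervals included 0. For Batf3 the value was 0.11 (-0.56 to 0.77, adjusted p = 0.841), and for Fscn1 0.22 (-0.83 to 1.28, adjusted p = 0.785), which became -0.98 without day 28 replicate 2. Flt3, at -0.16 (-1.60 to 1.28, adjusted p = 0.888), was the only member with a negative value, and its sign rested on 1 library, at 0.57 without day 28 replicate 1 and -1.46 without day 28 replicate 2. Clec9a (-1.80 to 3.19) and Itgae (-1.79 to 2.70) had intervals too wide to bound a difference at this depth.

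The Cd209a result turned on the day 14 libraries, which enter the shared estimate of spread. Without day 14 replicate 1, the day 28 to day 5 difference of Cd209a was called (adjusted p = 0.0397, edgeR), as it was without day 14 replicate 2 (0.0287) and in a fit of days 5 and 28 alone (0.0352), with log2 fold changes in all alternatives between 0.61 and 0.87. In these 3 fits the calls over all genes also rose, from 1960 to 2746, 2739 and 2778.

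Between day 5 and day 14 the largest positive values were those of Zbtb46, 0.94 (-0.05 to 1.94, adjusted p = 0.230), and Dpp4, 0.83 (-0.12 to 1.77, adjusted p = 0.268). Cd209a differed by 0.64 (-0.21 to 1.49, adjusted p = 0.339), and its direction turned on 1 library: the value was 1.22 without day 14 replicate 2 (adjusted p = 0.0458, with 285 of all genes called) and -0.30 without day 14 replicate 1 (adjusted p = 0.607). Between day 14 and day 28, Xcr1 differed by 0.86 (-0.46 to 2.18, adjusted p = 0.597), a value that was 2.21 without day 14 replicate 1 and 0.14 without day 14 replicate 2, and the members other than Clec9a and Itgae by less.

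Both day 14 libraries exceeded all day 5 libraries for 2 of 9 members, Dpp4 and Zbtb46, and for 21.9% of all genes. Both day 28 libraries exceeded both of day 14 for 1 member, Itgae, against 19.3% of all genes. Batf3 went the other way, with both day 28 libraries below both of day 14. The share of all genes in that direction is not given here. Both day 28 libraries exceeded all of day 5 for 4 members, Cd209a, Dpp4, Xcr1 and Zbtb46, against 26% of all genes. These orderings are in FPKM, and in log2 CPM the Zbtb46 libraries of day 5 and day 28 overlapped. Only 3 of the 9 members, Batf3, Fscn1 and Cd209a, reached a mean of 5 FPKM on any day, the level that the study asked of a stringently changed gene together with a 2-fold change.

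**Figure D2:**
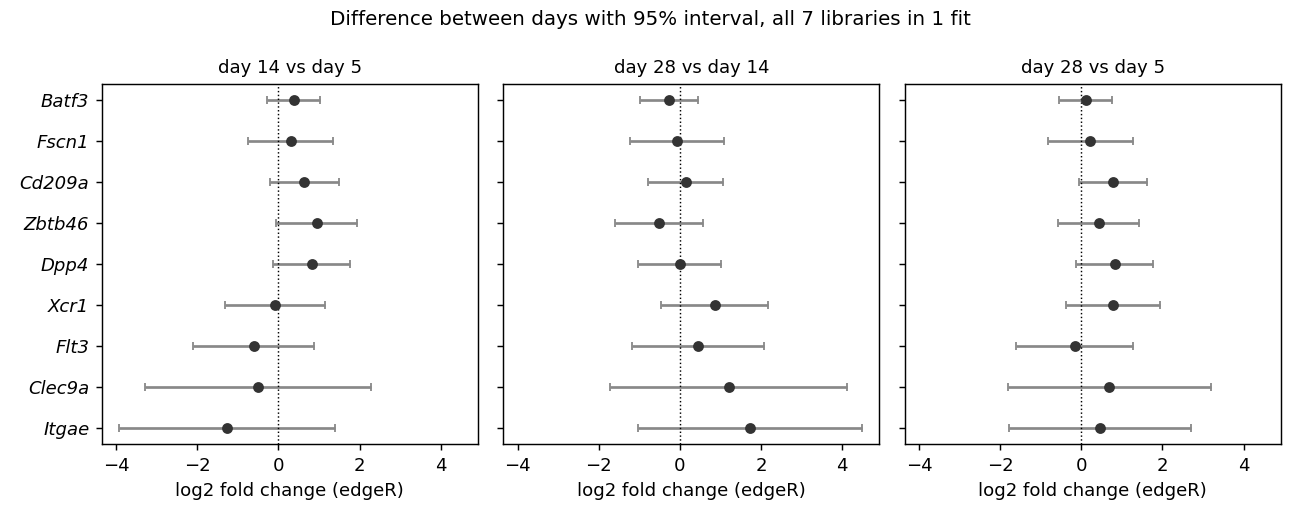
Fitted log2 fold change (horizontal axis) of each member between days, with 95% intervals, from 1 edgeR fit of the 7 libraries; members are ordered by mean FPKM. All 27 intervals include 0, and those of Clec9a and Itgae span over 4 log2 units.

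Libraries of the same day differed as well, and several members differed more within day 14 or day 28 than between days. The 2 libraries of day 14 were compared as the ratio of their fragments after library scaling, with exact counting intervals. Xcr1 was 4.25 times higher in replicate 1 (95% interval 2.31 to 8.35), Cd209a 2.88 times (2.16 to 3.87), Flt3 2.29 times (1.12 to 4.90) and Fscn1 2.04 times (1.69 to 2.46). Zbtb46 and Dpp4 were 1.70 and 1.63 times higher, and Clec9a had 11 fragments against 0. Batf3, at 1.35 times (0.987 to 1.83), did not differ beyond counting error. In all, 8 of 9 members were higher in day 14 replicate 1, with a median log2 difference of 1.01, whereas 49.3% of all genes were higher there.

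On day 28 the members split into those that differed and those that agreed. Flt3 was 4.12 times higher in replicate 2 (2.36 to 7.42), Fscn1 3.69 times (3.10 to 4.41), Clec9a 2.13 times (1.03 to 4.39) and Dpp4 1.58 times (lower bound 1.13). Batf3, Cd209a, Zbtb46 and Xcr1 had ratios of 0.948, 0.935, 0.951 and 0.840, all with intervals that include 1, and Itgae had 1.72 (0.727 to 4.01). The median within-day SD of the members on the log2 scale was 0.755, beside 0.211 over all genes tested and 0.406 over 4971 genes of the same range of level.

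**Figure D3:**
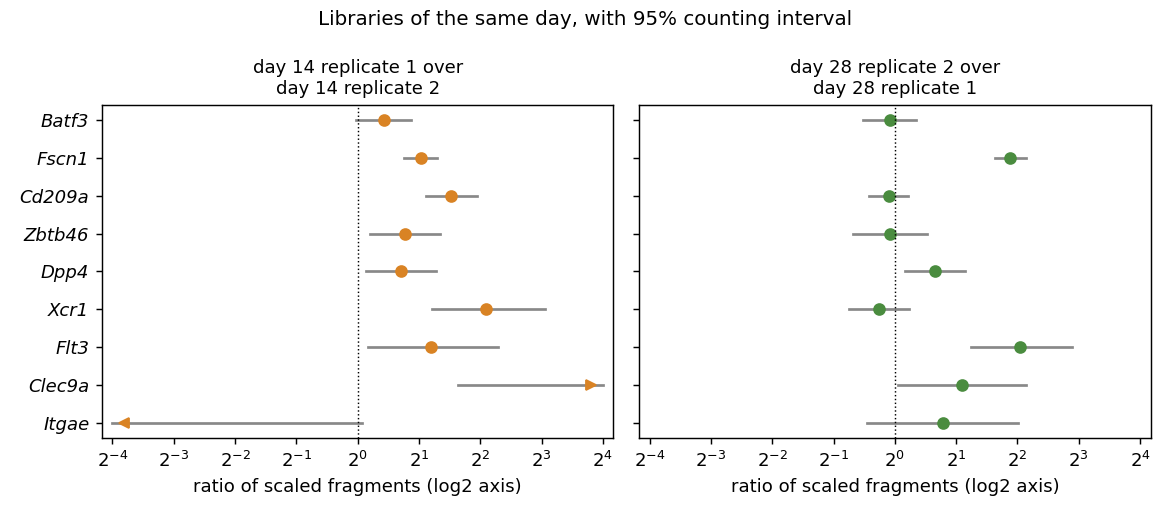
Ratio of scaled fragments between the 2 libraries of day 14 (left) and of day 28 (right) for each member, on a log2 axis with 95% counting intervals; an arrow marks a ratio with a count of 0 on one side. On day 14, 7 members have intervals above 1, and on day 28 Flt3 and Fscn1 stand near 4 while Batf3, Cd209a and Zbtb46 stand near 1.

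Other transcripts differed between the same libraries. All 10 genes of a list associated with mature dendritic cells were higher in day 14 replicate 1 than in replicate 2. Ccr7, the receptor that guides dendritic cells to lymph nodes, had 15.1 against 7.16 FPKM, and the chemokine gene Ccl22 had 18.5 against 7.83. On day 28 both were higher in replicate 2, as Fscn1 was, with 23.0 FPKM in replicate 2 against 12.6 in replicate 1 for Ccr7 and 27.1 against 15.0 for Ccl22. Over the whole list, 7 of 10 genes were higher in day 28 replicate 2, with a median ratio of 1.18, and Socs2 was lower there, with 2.66 against 3.37 FPKM. All 6 Cd209 paralogs were higher in day 14 replicate 1 (summed 22.1 against 6.36 FPKM), as were 5 of 6 monocyte markers (483.8 against 194.3) and all 6 fibroblast markers (220.5 against 80.3). Erythroid markers summed to 49.4 against 7.52 FPKM and eosinophil markers to 5.71 against 1.79. Day 14 replicate 1 was also higher for 12 of 16 macrophage markers (median ratio 1.23) and 7 of 10 genes of the cDC2 list (1.32). For the cDC1-associated genes it was higher for 6 of 8, with a median ratio of 1.04. Of the neutrophil markers only 1 of 4 was higher there, and T cell markers summed to 7.19 against 14.6 FPKM, although 2 of 3 tested were higher. The part of these in the difference between the day 14 libraries was not tested.

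Ligands and partners of the members were measured from near 0 to well above the members' levels, and a few changed. Of the ligands and partners, Flt3l, which encodes the FLT3 ligand, had 5.56 to 8.35 FPKM and was not called, and Xcl1, the XCR1 ligand, had at most 3 fragments in any library. Itgb7, the partner chain of ITGAE, fell from 58.1 to 64.0 FPKM on day 5 to 27.2 and 28.9 on day 28 (log2 fold change -1.12, adjusted p = 0.00953). Ada was listed as a possible partner of DPP4, but whether the mouse proteins bind was not tested. Its level was lower on day 28 than on day 5, with a log2 fold change of -0.60 (edgeR, adjusted p = 0.0099). Cdh1, which encodes the ITGAE ligand E-cadherin, rose by 1.02 (adjusted p = 0.0488) at under 1 FPKM. Jun, an AP-1 partner of BATF3, rose by 1.51 by day 14 (adjusted p = 0.00926) and stood 0.72 above day 5 on day 28 (adjusted p = 0.0321). In all, 1 of 9 tested genes of this list rose and 1 fell by day 14, and 2 rose and 2 fell by day 28.

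The genes associated with cDC2 and monocyte-derived dendritic cells included the largest rise. Itgax, which encodes CD11c, a surface integrin of dendritic cells that tissue macrophages can also carry, had 6.41, 18.3 and 6.55 FPKM on day 5, 34.1 and 170.4 on day 14, and 293.7 and 267.3 on day 28. Every later library was above day 5, and the log2 fold change to day 28 was 4.77 (SE 0.66, adjusted p = 0.00291). Its day 14 libraries ran opposite to 8 of the 9 members, with replicate 2 the higher one. Mgl2, a lectin gene, rose by 2.13 (adjusted p = 0.00191) and Irf4, a transcription factor of cDC2, by 1.94 (adjusted p = 0.00129), from between 1.30 and 3.66 FPKM on day 5 to between 8.24 and 12.6 on day 28. By day 14, 4 of the 10 genes of this list had risen, these 3 and Ltb, and by day 28 3 had risen and none had fallen. The list's median was 0.60 at day 14 and -0.30 at day 28.

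The cDC1-associated genes moved both ways within small ranges. From day 5 to day 28, 2 of 8 tested rose, Cadm1 by 0.57 and Cd24a by 0.44, and 3 fell, Tlr3 by 0.65, Wdfy4 by 0.50 and Naaa by 0.48, and none was called at day 14. Irf8, the cDC1 factor that macrophages also express, had 57.5 to 119 FPKM and was not called. Of the mature dendritic cell list, none was called at day 14. By day 28, 2 of 10 had risen, Socs2 by 1.45 (adjusted p = 0.0193) and Ccr7 by 1.42 (adjusted p = 0.04), and 3 had fallen, among them Il15ra by 1.31 and Relb by 0.85. Of 6 tested genes of the plasmacytoid dendritic cell list, Runx2 rose by 1.13 by day 14 and by 1.70 by day 28, and Irf7, Bst2 and Tcf4 fell by 2.40, 1.38 and 0.69. The interferon response genes Irf7 and Bst2 are expressed by many cell types. Siglech, a marker of plasmacytoid dendritic cells that microglia and some macrophages can also express, had at most 0.478 FPKM. Of the 6 Cd209 paralogs none was called in any comparison, although their medians of 1.58 at day 14 and 1.50 at day 28 were above those of the members.

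**Figure D4:**
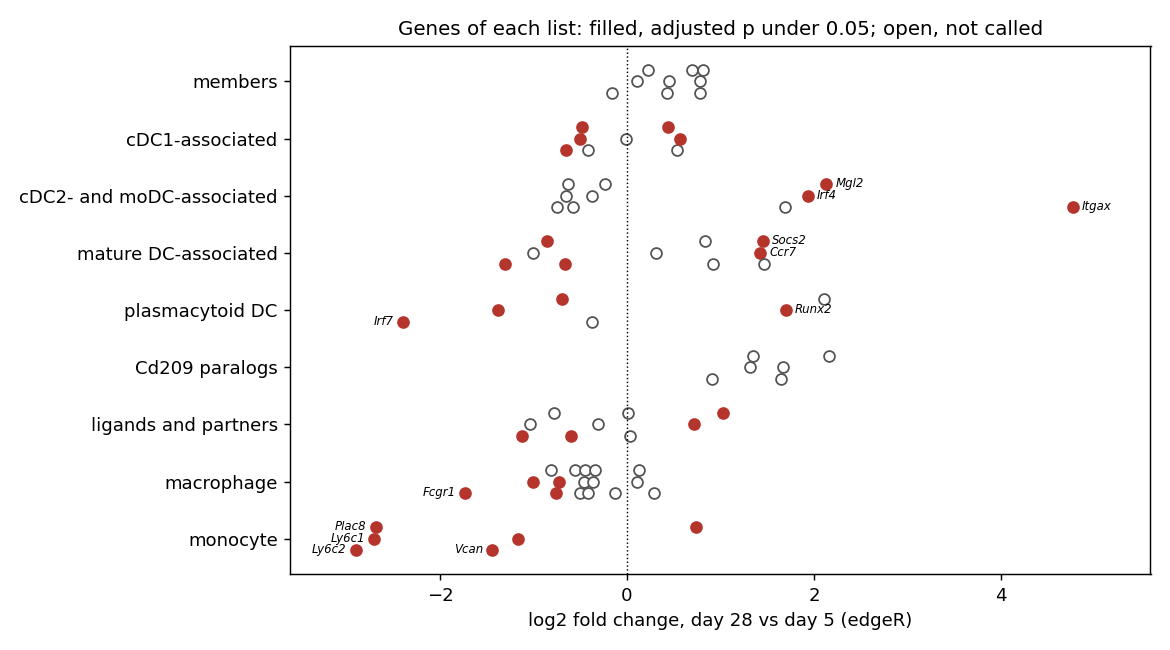
Log2 fold change from day 5 to day 28 (horizontal axis) of the tested genes of 9 lists, filled where called and open where not; points are shifted vertically for legibility. None of the 9 members is filled and they lie between -0.16 and 0.82, while Itgax stands at 4.77.

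The 16 macrophage markers summed to 19800 to 22510 FPKM on day 5, 22640 and 25760 on day 14 and 21030 and 21140 on day 28. Lyz2 was the largest part of these sums, with means of 11870, 15600 and 14420 FPKM on the 3 days. Of the 16 markers, 1 fell by day 14 and 4 fell by day 28, Fcgr1 by 1.73, Emr1 (F4/80) by 1.01, Cd14 by 0.76 and Mrc1 by 0.73, and none rose. Of the 6 monocyte markers, 5 fell by day 28, led by Ly6c2 at -2.90, Ly6c1 at -2.70 and Plac8 at -2.69, and Ccr2 rose by 0.74. The members, none of which was called, are thus set beside monocyte genes of which most fell and macrophage genes that fell or were not called.

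Markers of cells outside the gate differed widely in level. The neutrophil and fibroblast sums exceeded the members' range of 14.8 to 27.2 FPKM in every library. The sums for T cells, NK cells, eosinophils, and mast cells and basophils stayed below that range. T cell markers summed to 4.45 to 14.6 FPKM, most of it Cd2, which rose by 1.56, while Cd3e had a mean of 0.102. The B cell gene Cd79b had 4.38 to 10.3 FPKM, with Pax5 and Blk at or under 3 fragments, and NK cell markers summed to 0.452 to 1.90 FPKM. Neutrophil markers summed to 105.1 to 522.1 FPKM, highest on day 14, most of it S100a8 and S100a9. Of the others on that list, Cxcr2 had a mean of 3.71 FPKM and Ltf of 0.198, and Elane was at 0. Eosinophil markers summed to 1.79 to 5.71 FPKM (Siglec5 rose by 1.85) and mast cell and basophil markers to 0.0356 to 0.861, with Mcpt8 and Fcer1a at 0. Endothelial markers summed to 15.1 to 26.8 FPKM on day 5 and 3.76 to 7.21 on day 28, where Kdr and Pecam1 fell and Tek rose. Fibroblast markers summed to 28.8 to 220.5 FPKM, with Col1a2 higher by 1.86 on day 14, and Schwann cell markers to 10.7 to 19.9, most of it Mbp, which rose by 0.75. Erythroid markers summed to 2.22 to 49.4 FPKM, and Alas2 fell by 4.07. The part of these cells in the levels of the members was not tested.

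Genes with the pattern most like that of each member over the 7 libraries were taken as the 3 highest Pearson correlations of log2 CPM among about 7556 genes with a mean of at least 5 FPKM. The 7 points share their libraries and depths, and these names are descriptive. They were Lpcat1, Phlpp1 and Plxna1 for Dpp4 (r from 0.964 to 0.970), Alkbh6, St6galnac6 and Frmd4a for Zbtb46 (0.947 to 0.980) and Dvl3, Pik3r1 and Rptor for Flt3 (0.968 to 0.973). For Xcr1 they were Ddx39b, AW549877 and Cd83 (0.946 to 0.948). Cd83 is on the mature dendritic cell list and had a mean of 273.1 FPKM, beside 0.477 for Xcr1. The genes were Apmap, Lmo2 and Surf1 for Batf3 (0.934 to 0.945) and Rnaset2a, Xab2 and Stk16 for Fscn1 (0.921 to 0.943). For Cd209a they were Rabgap1l, Tbc1d4 and Fdx1 (0.893 to 0.910), for Itgae Wdr7, Uimc1 and Prkag2 (0.935 to 0.944) and for Clec9a Cytip, Proser1 and Ccnl2 (0.903 to 0.923).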

How the data were processed

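Macrophages sorted from the regenerative bridge were profiled by polyA+ RNA sequencing in 7 libraries. Per the submitters' processing notes and the study's methods, the authors used cutadapt 1.8 for trimming, TopHat2 2.0.13 for alignment to mm10 and Cuffdiff 2.2.1 for quantification. The authors deposited expected counts (fragments per gene before scaling), a scaled signal (the same fragments multiplied by 1 factor per library) and FPKM, which corrects for transcript length and library size. The handling of multi-mapped reads and of strand is not given in the sources used here, so paralogs and antisense genes are uncertain. No column of per-sample values was left out. Library totals were 18027190 to 35247116 fragments, so a gene of 10 fragments or fewer has wide counting error, and intervals are exact Poisson or binomial at 95%. FPKM status was a failure for 8 values, none in the members.

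Here the expected counts were rounded (1.01% of values were not whole, none in the members), filtered with filterByExpr by day (minimum count 10), scaled by TMM and fitted with edgeR 4.0.16 on all 7 libraries with day as the only factor (4 residual degrees of freedom), which replaced the authors' test because the counts are available. P-values were adjusted over 12858 genes by Benjamini-Hochberg and called at 0.05, two-sided. Alternatives were DESeq2 1.42.0, limma 3.58.1 on log2(FPKM + 1) and log2(FPKM + 0.1), other scalings and filters, days fitted alone, a replicate block and each library left out. The script was tested on simulated data. The members and gene lists were chosen with earlier results of these data known. Named genes were all members, up to 3 called genes per list with the largest change from day 5 to day 28, direct ligands, partners and paralogs, and the 3 genes most like each member. Further called genes of a list, and Ccl22, Irf8, Siglech, Cd79b, Pax5, Blk, Cd3e, Csf1r, Mcpt8 and Fcer1a, were named after their values were seen. So were Lyz2, S100a8, S100a9, Cxcr2, Ltf and Elane. Rab7b, on the cDC1 list, was not found under that symbol. The summed level of the B cell list is not reported here. R 4.3.3, Python 3.11.15, scipy 1.17.1 and matplotlib 3.10.9 were used. Promoters and motifs were read from RefSeq and coordinates from GENCODE vM21, matched by symbol.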

Additional observations from a re-analysis of the deposited data

How the results depend on the processing

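The count of called members stayed 0 in the day 28 to day 14 comparison under every alternative run. In the day 14 to day 5 comparison it ranged from 0 to 1 when a library was left out, and in the day 28 to day 5 comparison from 0 to 1, while the calls over all genes ranged from 52 to 1728 and from 452 to 2746. The 1 was Cd209a in each case. In the fit of the compared days alone the day 28 to day 5 count was 1, by construction without the day 14 spread. Over all genes, calls depended on the tool. DESeq2 called 1308, 336 and 2402 genes in the 3 comparisons, in the order day 14 to day 5, day 28 to day 14 and day 28 to day 5, against 614, 8 and 1960 by edgeR. Without an expression filter, 1429, 390 and 2466 were called, and with limma on log2(FPKM + 1) 252, 0 and 1802.

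The labels number the libraries within each day and do not say whether the numbers pair the samples. The correlation of same-numbered deviations over 7556 genes was 0.275 for days 5 and 14, -0.132 for days 14 and 28 and -0.00869 for days 5 and 28. It used replicate 1 and replicate 2 of each day only, too few libraries to decide on pairing. With the replicate block, 0 members were called in each comparison, and calls over all genes were 6, 0 and 735. With the day 28 numbers crossed, added after seeing the data, 0 members were called and 357, 63 and 1579 genes. Of 427 fold changes of members under alternatives, 407 kept their sign, and 20 did not, among them Fscn1 from day 5 to day 28, which ranged from -0.98 to 0.90. Depth limits Clec9a and Itgae most, at 0 to 18 and 0 to 15 fragments per library.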
